A study of Mus musculus with 41 samples.

Results

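Integrins, cadherins, protocadherins and claudins are membrane proteins that hold a cell to the matrix below it and to its neighbours. The genes described here are all those listed in the first of 3 expression tables under an integrin alpha or beta symbol, a Cdh, Pcdh or Cldn symbol followed by digits or letters, without Cdh1 and Cdh5. That gave 57 of the 13886 genes of the first table: 10 integrin alpha genes, 5 integrin beta genes, 6 cadherins, 4 claudins, 8 single protocadherins and 24 genes of the protocadherin clusters. Of the same 57 genes, 46 were listed among 12984 in the second table and 53 among 13407 in the third. Itga2b falls outside the wording of the symbol rule and was left out.

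RNA-seq was run on 41 libraries of MEEC, a wild-type line of endocardial cells from the mouse embryo, in 13 groups and 3 experiments. In the co-culture experiment, MEEC spent 6 h (at 50% confluency) or 24 h (at 25%) on a layer of OP9 stromal cells at 90% confluence that carried GFP, Dll4 or Jag1 (3 libraries in each of 6 groups). In the inhibitor co-culture, MEEC had 24 h of DMSO, the vehicle, or of 20 µM RO4929097, a gamma-secretase inhibitor, before 6 h on OP9-GFP cells (4 libraries in each of 2 groups). In the recombinant-ligand experiment, MEEC were seeded without OP9 cells in wells coated with DLL4-His (group rDLL4) or JAG1-Fc (group rJAG1), each with DMSO or with 20 µM RO4929097 (groups rDLL4+RO and rJAG1+RO), or in control wells with DMSO. These 5 groups had 3 libraries each and were taken at 38 h, of which the last 14 h were without serum. The labels do not say whether OP9 cells were removed before RNA was extracted, nor whether the libraries of 1 group were grown as separate cultures. The p-values given below therefore describe the spread among these libraries only, which may be technical.

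Integrins are pairs of an alpha and a beta chain that bind laminins, collagens, fibronectin and other matrix proteins and couple them to the actin cytoskeleton through talin and kindlin. Classical cadherins bind the same cadherin on the next cell and are tied to actin by catenins, protocadherins are a larger related family best known from the nervous system, and claudins form the strands and pores of tight junctions. Notch receptors are cut by gamma-secretase after binding a Delta or Jagged ligand, and in the endocardium Notch is known for its part in the change of shape by which cells leave the lining to form the valve cushions.

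Levels are given as the authors' normalized signal, which is reads scaled to a common library size, and between genes only as signal per kb of exon. Itgb1, the beta chain shared by most matrix integrins, was by far the most abundant member, at a mean of 253 signal per kb in the co-culture experiment. The next integrins there were the laminin receptor chain Itga3 at 58.1, Itgav at 33.5, the fibronectin receptor chain Itga5 at 21.6 and the laminin receptor chain Itga7 at 19.9 per kb. Among cadherins, Cdh3 (P-cadherin) stood at 57.8, Cdh11 at 43.3, Cdh2 (N-cadherin) at 34.4, Cdh24 at 5.86 and Cdh10 at 0.154 per kb. Of the 4 claudins listed, Cldn12 had 14.4 and Cldn15 8.34 per kb, while Cldn11 at 0.71 and Cldn1 at 0.228 were weak. Of the protocadherins, Pcdhgc3 had 13.8, Pcdh7 10.9, Pcdh19 3.97, Pcdh18 3.58 and Pcdhgc4 1.66 per kb.

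In the inhibitor co-culture and with recombinant ligands, Itgb1 stood at 273 and 276, Itga3 at 67.8 and 50.3 and Cdh3 at 43.6 and 54.9 per kb. Each table was normalized apart, so these levels were not tested against each other. Many members were weak: 29 of 57, 19 of 46 and 24 of 53 had a mean signal under 4. All listed genes reached a signal of 1 in at least 3 libraries (4 in the second table), so a member missing from a table has no level here. The second table has no row for Itga4, Itga8, Itga11, Cldn1, Cldn11, Pcdh1, Pcdh17 and 4 cluster genes. Of all genes annotated in these families (GENCODE M21, build GRCm38), 57 of 138 were listed, among them 4 of 23 claudins and 6 of 21 cadherins.

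The 24 cluster genes, adhesion receptors of which the gamma genes on chr18 share their last exons, were counted apart by the authors. Reads of those shared exons cannot be given to one gene with certainty, so single values of these genes are uncertain. Pcdhgc3 held 55.7% to 62.4% of their summed signal by group in the co-culture experiment, 58.9% and 58.8% in the inhibitor co-culture and 39.8% to 45.8% with recombinant ligands.

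Libraries held 14.1 to 16.8 M recovered reads (M, mega) in the co-culture experiment, 19.4 to 25.2 M in the inhibitor co-culture and 11.2 to 34.2 M with recombinant ligands. A gene with 3 reads, the most that a count of 0 allows for, has a signal of 0.209 to 0.258, 0.138 to 0.184 and 0.100 to 0.311 there, counting error only. Of 12 endothelial markers, 5 were listed in the first and the third tables (Tek, Kdr, Cd34, Eng and Nfatc1) and 4, without Eng, in the second. Pecam1, Cdh5, Tie1, Emcn, Erg, Vwf and Cldn5 had no row, although MEEC is labelled as endocardial. In bulk RNA, fewer cells of a type and less RNA per cell cannot be told apart. Libraries 2 of OP9-GFP at 6 h, OP9-Dll4 at 6 h and rJAG1, and library 3 of DMSO, stood apart from their groups. Their smallest root mean square log2 difference to another library of the group was over 1.3 times the largest among the others. Library 2 of OP9-Jag1 at 6 h narrowly missed this limit, with 0.232 and 0.293, against 0.179 between the others. For DMSO library 3 the root mean square log2 difference was 0.331 and 0.366, against 0.186 between the other 2.

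With recombinant ligands, the integrin chains Itga8, Itga7, Itga4 and Itgb3 rose and the junction genes Pcdh10 and Cldn15 fell in both ligand groups. Over rJAG1, 5 of 9 integrin alpha and 2 of 5 integrin beta genes rose against DMSO and 2 alpha genes fell. With them, 1 claudin rose and 1 fell, 2 single protocadherins and 1 cadherin fell, and no cluster gene passed. In all, 14 of 53 members passed (26.4%), beside 9.58% of all genes tested. Of them 8 were higher, beside 4.83% of all genes, and 6 lower, beside 4.76%, with a median log2 fold change of -0.06 over members and 0.00 over all genes. Over rDLL4, 8 members passed (15.1%), beside 3.5% of all genes, 6 of them higher, beside 2.45%, and 2 lower, beside 1.05%. Itga8, Itga4 and Cldn11, 3 of the higher calls in each ligand group, are listed in the third table only through the ligand libraries and so had to be higher there to be tested. Of the other 50 members, 5 were called in rDLL4 and 11 in rJAG1. A share of all genes without those listed in that way was not computed, so these counts have no like background. These are adjusted p values under 0.05 from limma on log2(signal + 1), a scale that understates changes of weak genes, and both comparisons share the DMSO libraries.

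Itga8, the alpha chain that pairs with Itgb1 and binds nephronectin (chr2:12106632-12301922, minus strand), had the largest log2 fold change of the members in both ligand groups. Its signal was 0.384, 0.501 and 0.419 in DMSO, 3.64, 3.17 and 2.97 in rDLL4, and 5.44, 5.98 and 5.06 in rJAG1. The 6 ligand libraries lay far above the 3 DMSO libraries, and every rJAG1 library lay above every rDLL4 library. The ratio of mean signals was 12.6 for rJAG1 (log2 fold change of signal + 1 2.18, SE 0.13, adjusted p = 5.49e-08, limma) and 7.51 for rDLL4 (1.57, SE 0.13, adjusted p = 5.35e-06, limma). Its DMSO values rest on 9, 17 and 7 reads, and a signal of 1 was reached in the 6 ligand libraries alone, as it was for Itga4 and Cldn11.

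Itga7, the alpha chain of the muscle laminin receptor (chr10:128933818-128958282, plus strand), had a signal of 29.4, 24.7 and 31.2 in DMSO, 67.0, 46.0 and 49.3 in rDLL4, and 87.8, 75.6 and 64.8 in rJAG1. No ligand library overlapped with DMSO, while rDLL4 and rJAG1 did overlap. It rose by 1.39 on the log2 scale in rJAG1 (SE 0.15, adjusted p = 1.5e-05, limma) and by 0.89 in rDLL4 (adjusted p = 0.00251, limma). Itga4, the receptor chain for Vcam1 and fibronectin (chr2:79255426-79333123, plus strand), was weak, with 0.83, 0.844 and 0.698 in DMSO. It reached 1.83, 2.04 and 2.44 in rDLL4 and 1.66, 2.34 and 2.42 in rJAG1, again without overlap with DMSO. Its log2 fold changes were 0.79 (adjusted p = 0.00708) and 0.80 (adjusted p = 0.00236), both limma. Itga4 was listed only through the ligand libraries and so had to be higher there to be tested.

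Among beta chains, Itgb3, which pairs with Itgav to bind vitronectin and fibronectin (chr11:104608000-104670476, plus strand), had 10.1, 11.7 and 6.23 in DMSO. It stood at 14.2, 16.7 and 15.1 in rDLL4 and at 20.0, 19.5 and 18.5 in rJAG1. The 3 groups did not overlap, and DMSO library 3 was the lowest of all 9. Itgb3 rose by 1.02 (SE 0.17, adjusted p = 0.000847, limma) in rJAG1 and by 0.70 (adjusted p = 0.0315, limma) in rDLL4. The rDLL4 call ended without DMSO library 3 (adjusted p = 0.0501) or without any 1 rDLL4 library (up to 0.13). Itgb5, another partner of Itgav, had 57.0 to 78.6 in DMSO and 90.2 to 122.2 in rJAG1 and rose by 0.57 there (adjusted p = 0.00406, limma). Its rDLL4 value of 0.41 did not pass (adjusted p = 0.071).

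Itgav and Itga5 rose little. In rJAG1 the log2 fold changes were 0.21 (adjusted p = 0.039) and 0.19 (adjusted p = 0.0484), and in rDLL4 Itgav rose by 0.24 (adjusted p = 0.0368), all limma. These calls were not stable to single libraries. In rJAG1, Itgav ended without DMSO library 2 or 3 or rJAG1 library 1 or 2 (up to 0.15), and Itga5 without DMSO library 1 or 2 or any rJAG1 library (up to 0.168). In rDLL4, Itgav ended without DMSO library 2 or 3 or any rDLL4 library (up to 0.177).

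The laminin receptor chains Itga3 and Itga6 went the other way in rJAG1. Itga3 (chr11:95044474-95076801, minus strand) had 371.8, 300.2 and 365.2 in DMSO, 264.9, 237.7 and 237.0 in rDLL4, and 244.0, 160.9 and 190.7 in rJAG1. All ligand libraries were below the lowest DMSO library. Itga3 fell by 0.81 in rJAG1 (SE 0.13, adjusted p = 0.000653, limma), while its log2 fold change of -0.48 in rDLL4 did not pass (adjusted p = 0.0566). Itga6 fell by 0.36 in rJAG1 (adjusted p = 0.0124, limma), a call that ended without DMSO library 2 or rJAG1 library 1 or 3 (up to 0.0562).

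**Figure D1:**
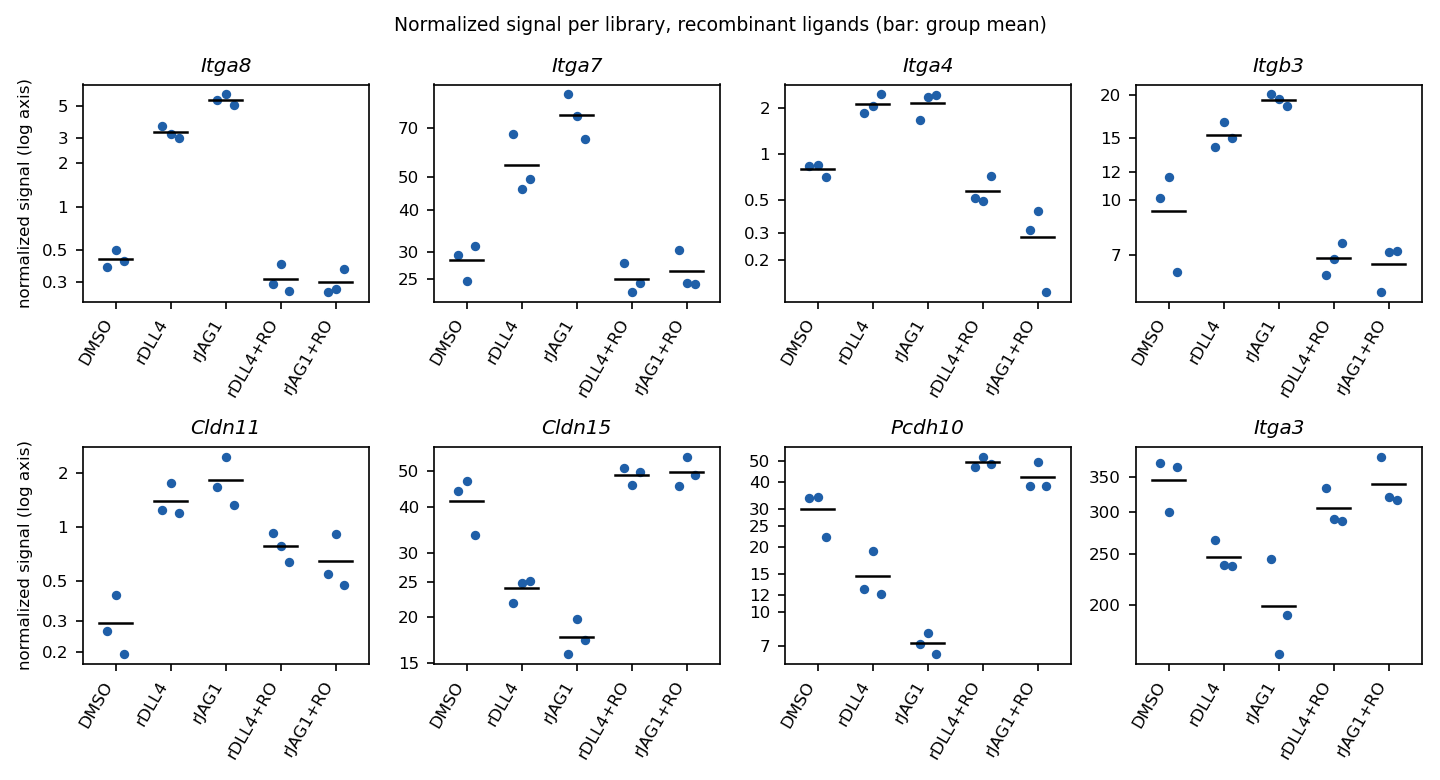
Normalized signal (log axis) of 8 members in each library of the 5 groups of the recombinant-ligand experiment, 1 point per library and a bar at the group mean. Of these, Itga8, Itga4 and Cldn11 were listed only through the ligand libraries. Itga8, Itga7, Itga4, Itgb3 and Cldn11 stand higher in the ligand libraries than in DMSO, Cldn15, Pcdh10 and Itga3 stand lower, and the means with RO4929097 lie below the ligand means in the former and above them in the latter.

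The cell to cell receptors that passed were mostly lower. Pcdh10, a single protocadherin (chr3:45378398-45435623, plus strand), had 33.9, 34.2 and 22.3 in DMSO, 12.8, 19.3 and 12.2 in rDLL4, and 7.14, 8.03 and 6.41 in rJAG1. The 3 groups did not overlap, with DMSO highest and rJAG1 lowest. Pcdh10 fell by 1.91 in rJAG1 (SE 0.18, adjusted p = 4.07e-06, limma), to 0.239 of the DMSO mean, and by 0.98 in rDLL4 (adjusted p = 0.00449, limma), to 0.491 of it. Pcdh7, also a single protocadherin, had 205.0, 206.6 and 151.8 in DMSO and 125.1, 118.2 and 116.6 in rJAG1 and fell by 0.63 (adjusted p = 0.00171, limma). Cdh3 had 243.6 to 273.2 in DMSO and 182.2 to 208.7 in rJAG1 and fell by 0.42 (adjusted p = 0.00052, limma). Cdh2, at 232.8 to 292.6 in DMSO and 259.3 to 331.5 in rJAG1, did not pass in either ligand group.

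The claudins moved in both directions. Cldn15, a claudin that forms cation pores (chr5:136966616-136975858, plus strand), had 44.2, 47.0 and 33.5 in DMSO, 21.9, 24.8 and 25.2 in rDLL4, and 15.9, 19.7 and 17.4 in rJAG1. Again the 3 groups were apart, with DMSO highest. Cldn15 fell by 1.18 in rJAG1 (SE 0.12, adjusted p = 8.63e-06, limma) and by 0.76 in rDLL4 (adjusted p = 0.00178, limma). Cldn11, known from myelin and the testis (chr3:31149920-31164324, plus strand), had 0.263, 0.415 and 0.195 in DMSO, 1.24, 1.75 and 1.2 in rDLL4, and 1.66, 2.46 and 1.32 in rJAG1. No ligand library reached down to DMSO, whose values are near the floor. Cldn11 rose by 1.11 (adjusted p = 0.000571) and 0.89 (adjusted p = 0.00877), both limma. It was listed only through the ligand libraries and so had to be higher there to be tested. Cldn12 had 53.2 to 67.6 in DMSO and did not pass in either group.

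Replicate numbers were taken to pair the libraries of these groups from correlations alone, as described under the processing. With the number as a block in the fit, 14 members passed in rDLL4 in place of 8, beside 6.47% of all genes. The added members were Itgb5 (blocked adjusted p = 0.00976), Itga3 (0.00181), Itga5 (0.0268), Itgb1 (0.0317), Cdh2 (0.0323) and Pcdh7 (0.0472), all limma. The rJAG1 count went to 18, beside 15.1% of all genes. Without DMSO library 3, which stood apart, 8 members passed in rDLL4, where the share of all genes went from 3.5% to 5.65%, and 16 in rJAG1, beside 14.1%. Without rJAG1 library 2, 13 passed in rJAG1, beside 7.85%. The share of all genes called in rDLL4 also moved by over 1.5 times without DMSO library 2 (2.33%, 9 members) and without rDLL4 library 1 (1.78%), 2 (2.26%) or 3 (2.14%), with 6 members in each of the last 3.

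Markers of other cell types moved with these groups. The summed signal of the 6 listed epithelial markers of 10 was 971 to 1076 in DMSO, 1368 to 1609 in rDLL4, 1811 to 2051 in rJAG1 and 587 to 678 in the 2 groups with RO4929097. In each ligand group 4 of the 6 rose, and Krt5, Cldn3, Cldn4 and Cldn7 have no row. The summed signal of 11 listed OP9 stromal markers of 13 was 3704 to 4478 in DMSO, 5397 to 6153 over ligands and 3899 to 4303 with the inhibitor, with 2 rising in rDLL4 and 3 in rJAG1, although no OP9 cells were in these wells. The 5 listed endothelial markers summed to 120 to 192 in DMSO, 111 to 142 in rDLL4, 92.9 to 109 in rJAG1, 159 to 171 in rDLL4+RO and 139.9 to 163 in rJAG1+RO. Of the 5, 1 fell in each ligand group, and their median log2 fold change was -0.05 in rDLL4 and 0.19 in rJAG1. With RO4929097, 2 rose and 3 fell against rJAG1, and 1 rose and 1 fell against rDLL4. The endothelial sum therefore does not describe the list as a whole. The part of these shifts in the results was not tested.

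The starts of the 4 members with a RefSeq window whose values moved most among integrins, claudins and protocadherins are shown as sequence context. Each is 250 bases before to 50 after the start on build GRCm38.p6 (RefSeq), 5′ to 3′ on the gene's strand. Capitals mark TGGGAA, the core of the site that the Notch partner RBPJ is known to bind, or its reverse complement TTCCCA.

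Itga8, chr2:12301895-12302194, minus strand: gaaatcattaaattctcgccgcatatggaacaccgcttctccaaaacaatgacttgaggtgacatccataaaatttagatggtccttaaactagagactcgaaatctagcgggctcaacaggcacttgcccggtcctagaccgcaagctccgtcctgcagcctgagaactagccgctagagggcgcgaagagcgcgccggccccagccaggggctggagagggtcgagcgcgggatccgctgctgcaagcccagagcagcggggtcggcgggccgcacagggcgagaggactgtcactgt

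Cldn11, chr3:31149670-31149969, plus strand: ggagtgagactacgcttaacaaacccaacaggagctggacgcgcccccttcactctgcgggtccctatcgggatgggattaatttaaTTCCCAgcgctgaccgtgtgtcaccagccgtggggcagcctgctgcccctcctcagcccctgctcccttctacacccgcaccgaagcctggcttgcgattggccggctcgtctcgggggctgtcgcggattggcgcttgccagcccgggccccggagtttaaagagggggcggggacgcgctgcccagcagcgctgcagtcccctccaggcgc

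Pcdh10, chr3:45378148-45378447, plus strand: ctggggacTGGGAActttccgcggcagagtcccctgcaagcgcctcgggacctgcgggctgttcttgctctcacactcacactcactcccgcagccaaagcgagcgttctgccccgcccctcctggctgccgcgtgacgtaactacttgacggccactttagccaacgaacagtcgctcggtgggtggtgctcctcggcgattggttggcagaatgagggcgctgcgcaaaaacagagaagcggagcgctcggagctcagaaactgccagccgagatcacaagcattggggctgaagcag

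Cldn15, chr5:136967619-136967918, plus strand: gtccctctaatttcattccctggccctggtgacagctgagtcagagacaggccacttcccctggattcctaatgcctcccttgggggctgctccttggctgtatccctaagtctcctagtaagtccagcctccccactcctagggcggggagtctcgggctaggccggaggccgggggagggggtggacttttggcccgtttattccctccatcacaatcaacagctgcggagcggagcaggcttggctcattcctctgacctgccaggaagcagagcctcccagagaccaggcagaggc

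The window of Cldn11 holds the core once, with its first base at -163 from the start, that of Pcdh10 once at -242, and those of Itga8 and Cldn15 hold none. Of 32851 windows of the same length over all genes, 25.6% hold TGGGAA on either strand. Of 28 windows of the 24 members that have one, 3 hold it (10.7%), those of Cdh24, Cldn11 and Pcdh10. The longer form GTGGGAA (reverse complement TTCCCAC, which contains the core) is in 6.38% of all windows and CACGTG, a palindrome bound by many helix-loop-helix factors, in 7.15%, and no member window holds either. A match is a run of letters and not a bound site.

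With RO4929097 added, most integrins that passed were lower and Pcdh10 and Cldn15 higher than with the ligand alone. These comparisons share the ligand libraries with those against DMSO, so their values are set side by side only. No wells of this experiment had RO4929097 without a ligand. An effect of the inhibitor by itself and one on the response to the ligand thus cannot be told apart here. Against rJAG1 alone, rJAG1+RO had 20 of 53 members past the test (37.7%), beside 18.4% of all genes, 8 of them higher, beside 9.58%, and 12 lower, beside 8.78%. By family, 5 of 9 integrin alpha and 4 of 5 integrin beta genes fell, 1 alpha gene rose, cadherins split 2 and 2, 2 single protocadherins and 2 cluster genes rose, and 1 claudin rose and 1 fell. Against rDLL4 alone, rDLL4+RO had 13 (24.5%), beside 10.7%. Of these 3 were higher, beside 4.91%, and 10 lower, beside 5.76%, with 5 alpha, 3 beta and 2 cadherin genes lower. Among the lower calls, 3 against rJAG1 and 2 against rDLL4 are of the 3 genes listed only through the ligand libraries. Of the other 50 members 17 and 11 were called, again without a like share of all genes.

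Itga8 had 0.258, 0.272 and 0.373 in rJAG1+RO and 0.291, 0.403 and 0.263 in rDLL4+RO. All 6 values lay below 1 and far below the ligand libraries, with a ratio of 0.0547 to rJAG1 (log2 fold change -2.32, adjusted p = 9.2e-09, limma) and a log2 fold change of -1.69 to rDLL4 (adjusted p = 5.84e-07, limma). In rJAG1+RO these values rest on 4, 5 and 7 reads. Itga8 was listed only through the ligand libraries and so had to be higher there to be tested. Pcdh10 had 38.4, 49.4 and 38.6 in rJAG1+RO and 47.1, 52.5 and 48.8 in rDLL4+RO, above every ligand library. It rose by 2.39 (adjusted p = 1.83e-07) and 1.70 (adjusted p = 1.29e-05), both limma, and its mean was 5.86 times that in rJAG1 alone.

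Itga7 stood at 30.4, 24.3 and 24.2 in rJAG1+RO and 27.8, 22.9 and 24.3 in rDLL4+RO and fell by 1.49 (adjusted p = 3.33e-06) and 1.07 (adjusted p = 0.000178), both limma. Itgb3 fell by 1.43 (adjusted p = 2e-05) and 1.06 (adjusted p = 0.000587), and Itga4 by 1.28 (adjusted p = 1.97e-05) and 0.98 (adjusted p = 0.000468), all limma. Cldn15, at 45.7, 54.8 and 48.9 in rJAG1+RO and 50.9, 46.0 and 49.8 in rDLL4+RO, rose by 1.45 (adjusted p = 5.14e-07) and 1.00 (adjusted p = 4.51e-05), both limma. In these genes no inhibitor library overlapped with the ligand group it was set against. Cldn11 fell by 0.77 against rJAG1 (adjusted p = 0.0059, limma). Itga4 and Cldn11 were listed only through the ligand libraries and so had to be higher there to be tested.

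Smaller changes touched the abundant chains. In rJAG1+RO, Itgb5 fell by 0.68 (adjusted p = 0.000588), Itgb4, the hemidesmosome chain, by 0.57 (0.016), Cdh2 by 0.53 (0.00273), Itga5 by 0.28 (0.00289), Itgb1 by 0.28 (0.0114) and Itgav by 0.27 (0.00478), all adjusted p from limma. Itga3 rose there by 0.79 (0.00046), Pcdh7 by 0.64 (0.000822), Cdh11 by 0.44 (0.0463) and Cdh3 by 0.42 (0.000258). The cluster genes Pcdhga9 and Pcdhb22 rose by 0.61 (0.035) and 0.44 (0.037), and Cdh10 fell by 0.61 (0.0182). In rDLL4+RO, Cdh10 fell by 0.72 (0.0105), Itgb5 by 0.54 (0.00578), Cdh2 by 0.47 (0.0106), Itga5 by 0.41 (0.000258), Itgav by 0.30 (0.00358) and Itgb1 by 0.29 (0.0121), and Pcdh7 rose by 0.40 (0.0317). Of the calls in the 2 comparisons, 15 of 20 and 9 of 13 held whichever library was left out. Those that ended at least once were Cdh10 (up to 0.064), Cdh11 (0.148), Itgb4 (0.0624), Pcdhb22 (0.116) and Pcdhga9 (0.128) against rJAG1, and Cdh10 (0.0564), Cdh2 (0.0621), Itgb1 (0.0604) and Pcdh7 (0.134) against rDLL4. Without rJAG1 library 2, which stood apart, 17 members passed against rJAG1, beside 14.2% of all genes.

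**Figure D2:**
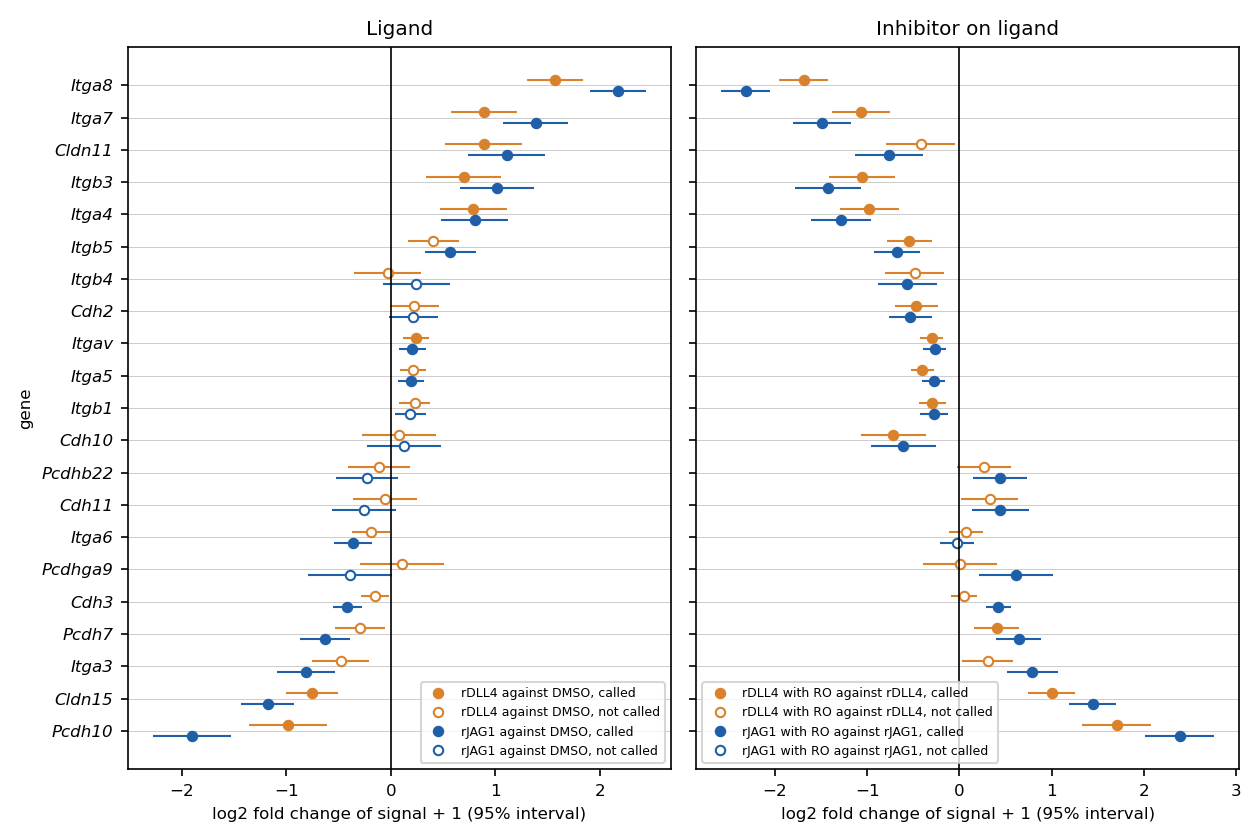
Log2 fold change of signal + 1 with its 95% interval for the 21 members called in at least 1 of the comparisons shown. Each ligand against DMSO is on the left and each ligand with RO4929097 against that ligand alone on the right. Filled points passed an adjusted p of 0.05, and Itga8 and Pcdh10 lie at opposite ends of each panel. Itga8, Itga4 and Cldn11 were listed only through the ligand libraries.

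Against DMSO, cells with a ligand and RO4929097 differed in few members. In rDLL4+RO none passed, beside 1.4% of all genes (limma 0, edgeR 0), and 11 had an unadjusted p under 0.05 (20.8%), beside 11.8% of all genes. The largest log2 fold change among these 11 was 0.72 for Pcdh10, at 22.3 to 34.2 in DMSO and 47.1 to 52.5 in rDLL4+RO without overlap (adjusted p = 0.0576). In rJAG1+RO, 1 member passed, beside 0.94% of all genes: Itga6 fell by 0.39 (adjusted p = 0.0453, limma), with 57.3 to 62.2 in DMSO and 43.5 to 47.3 in rJAG1+RO. That call ended in 5 of 6 fits without 1 library (up to 0.158) and held only without DMSO library 3. With the block, 4 members passed in rDLL4+RO, beside 4.38% of all genes, and 3 in rJAG1+RO, beside 2.9%. Pcdh10 was then called in both (blocked adjusted p = 0.00303 and 0.0407, limma), as was Cdh2, which was lower (0.0291 and 0.0088), and in rDLL4+RO so were Cdh10 (0.049) and Itgb4 (0.0177).

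Set directly against each other, the ligands differed in 1 member, beside 0.231% of all genes. The coats also differed in tag, DLL4-His against JAG1-Fc, so ligand and tag cannot be told apart. Pcdh10 was 0.92 higher in rDLL4 than in rJAG1 (SE 0.18, adjusted p = 0.0425, limma), with the values given above and no overlap, but the call ended in each of the 6 fits without 1 library (adjusted p up to 0.235) and with edgeR (0.0717). With the block 3 members passed, beside 0.88% of all genes, the others being Itga8, lower by 0.61 in rDLL4 (blocked adjusted p = 0.0443, limma), and Itga7, lower by 0.49 (0.0288). The ligands with RO4929097 differed in no member (limma 0, edgeR 0, beside 0% of all genes), with 1 member at an unadjusted p under 0.05 (1.89%), beside 1.42% of all genes. The effect of RO4929097 did not pass as different between the ligands for any member (interaction, limma 0, edgeR 0, beside 0.0149% of all genes). At an unadjusted p under 0.05 there were 9 members, beside 3.70% of all genes. For Itga8 the inhibitor effect was 0.63 less negative on rDLL4 than on rJAG1 (adjusted p = 0.762, limma), with a 95% interval, not adjusted for the number of genes, of 0.25 to 1.01. Itga8 was near the floor in both groups with RO4929097, so this value largely repeats its difference of 0.61 between the ligands. Between rDLL4 and rJAG1, intervals of the log2 difference that missed the threshold ran from -0.33 to 0.31 for Itga4, -0.68 to 0.04 for Itgb3 and 0.05 to 0.61 for Itga3.

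Over OP9 cells at 24 h, Itga7 and Itga1 rose with Jag1, and Cldn15 fell with each ligand. At that time OP9-Jag1 against OP9-GFP gave 3 of 57 members (5.26%), beside 2.02% of all genes. Itga7 had 90.3, 65.9 and 104.6 on OP9-GFP and 148.8, 133.2 and 148.1 on OP9-Jag1, without overlap, and rose by 0.74 (SE 0.17, adjusted p = 0.0298, limma). Itga1, a collagen receptor chain, had 12.8, 10.8 and 13.6 on OP9-GFP and 23.3, 16.6 and 25.1 on OP9-Jag1 and rose by 0.74 (adjusted p = 0.0376, limma). Cldn15 had 29.7, 24.4 and 26.1 on OP9-GFP and 19.4, 19.6 and 18.3 on OP9-Jag1, also without overlap, and fell by 0.46 (adjusted p = 0.0187, limma). All 3 calls ended without OP9-GFP library 1 (adjusted p 0.0741 to 0.112) and without OP9-Jag1 library 1 or 3. Itga7 also ended without OP9-GFP library 2 (0.192) and Itga1 without OP9-GFP library 2 or 3 (0.205 and 0.0609).

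OP9-Dll4 at 24 h gave 1 member (1.75%), beside 0.511% of all genes. Cldn15, at 17.9, 16.8 and 17.6, was below every OP9-GFP library and fell by 0.58 (adjusted p = 0.0145, limma), a call that ended without library 1 or 3 of either group (up to 0.0732). Itga7, at 140.9, 117.5 and 140.1, was above every OP9-GFP library, with a log2 fold change of 0.63 that did not pass (adjusted p = 0.164).

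Marker lists also differed at 24 h. The listed endothelial markers summed to 96.7 to 99.9 on OP9-GFP, 72.5 to 81.8 on OP9-Dll4 and 68.3 to 81.5 on OP9-Jag1, with 1 of 5 lower in each ligand comparison. Their median log2 fold change was 0.14 on OP9-Dll4 and 0.07 on OP9-Jag1, opposite in sign to the change of their sum. The epithelial markers summed to 1850 to 1938, 2331 to 2500 and 2252 to 2386, with 1 of 6 higher on OP9-Jag1. Neither of these sums overlapped between OP9-GFP and the ligands. The OP9 stromal markers overlapped (4370 to 6589, 5450 to 7790 and 5791 to 8289), and 4 of 6 listed cardiomyocyte markers of 10 rose on OP9-Dll4, where they summed to 43.8 to 79.1, against 29.5 to 33.2 on OP9-GFP. Their part in the members' changes was not tested.

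At 6 h neither ligand gave a call among members, nor did any fit without 1 library. For OP9-Jag1, limma and edgeR gave 0 members, beside 0.101% of all genes, and at an unadjusted p under 0.05 there were 6 (10.5%), beside 4.98%. For OP9-Dll4 the counts were 0 and 0, beside 0.0072%, and 3 at an unadjusted p under 0.05 (5.26%), beside 3.88%. Itgb8, the Itgav partner that activates latent TGF-beta, had a mean of 63.1 ± 8.58 (SD, n = 3) on OP9-GFP, 50.5 ± 2.33 on OP9-Dll4 and 44.4 ± 2.66 on OP9-Jag1. The OP9-GFP libraries did not overlap with either, yet the log2 fold changes of -0.31 and -0.49 did not pass (adjusted p = 0.912 and 0.127, limma).

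Within a time, replicate numbers were taken to pair these libraries, again from correlations alone, and a block on the number per time raised the counts. For OP9-Jag1, 14 members passed at 24 h, beside 10.9% of all genes, and 7 at 6 h, beside 3.36%. For OP9-Dll4, 9 passed at 24 h, beside 5.82%, and 2 at 6 h, beside 1.17%. In that fit Itga7 was higher in all 4 comparisons (blocked adjusted p = 1.01e-06 and 0.0184 for OP9-Jag1 at 24 h and 6 h, 1.43e-05 and 0.0252 for OP9-Dll4) and Itgb8 lower in all 4 (0.000409, 0.000142, 0.0136 and 0.0194), all limma. The pairs that share a time also share their OP9-GFP libraries. Itga3 was lower in OP9-Jag1 at 24 h by 0.54 (4.37e-05) and in OP9-Dll4 by 0.38 (0.00232), Pcdh10 by 0.47 (0.00548) and 0.49 (0.00639), and Itga6 by 0.30 (0.000179) and 0.22 (0.00492), blocked adjusted p from limma. Only OP9-Jag1 at 24 h had blocked calls for Cldn11, 0.78 higher (0.0129), and Itga8, 0.80 higher (0.0146). Itga8 was near the floor there, at 0.106, 0.325 and 0.287 on OP9-GFP and 1.43, 0.379 and 1.94 on OP9-Jag1. Calls in 1 of 2 comparisons do not show that the comparisons differ.

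**Figure D3:**
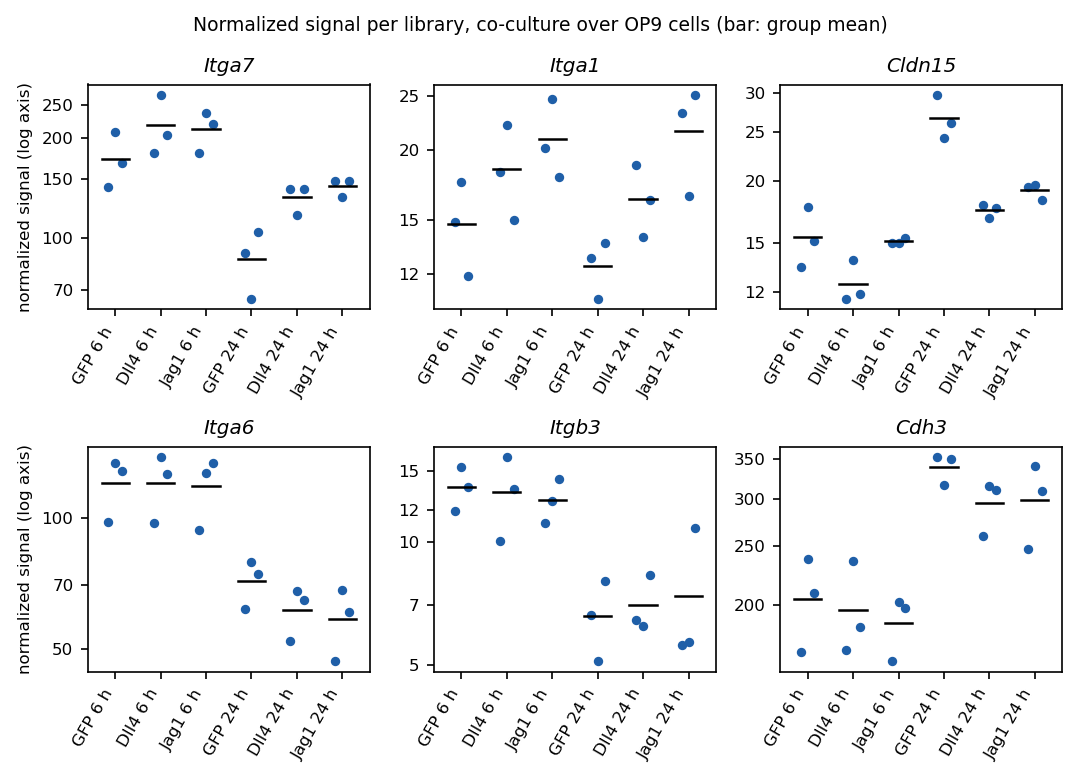
Normalized signal (log axis) of 6 members in each library of the 6 co-culture groups, 1 point per library and a bar at the group mean. Itga7 and Cldn15 show OP9-GFP at 24 h apart from both ligand groups of that time, while Itga6, Itgb3 and Cdh3 differ mainly between 6 h and 24 h.

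Dll4 and Jag1 cells, set against each other, gave no member at 6 h (limma 0, edgeR 0, beside 0% of all genes) or at 24 h (limma 0, edgeR 0, beside 0.0288%). At an unadjusted p under 0.05 there were 2 members at 6 h, beside 1.86% of all genes, and 0 at 24 h, beside 1.92%. With the block Itga1 was 0.38 lower on OP9-Dll4 at 24 h (blocked adjusted p = 0.0373, limma), beside 0.483% of all genes. The change of a ligand's effect from 6 h to 24 h passed for no member (limma and edgeR 0, beside 0.0072% of all genes in each). At an unadjusted p under 0.05 there were 4 members for Jag1 (7.02%), beside 3.46% of all genes, and 1 for Dll4 (1.75%), beside 2.81%. With the block, 3 passed for Jag1, beside 1.31% of all genes: Itga7 by 0.44 (blocked adjusted p = 0.0319), Pcdhgc3 by 0.33 (0.0315) and Itga6 by -0.27 (0.0414), limma.

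Time over OP9-GFP, which also differs in the confluency of MEEC, moved 11 of 57 members (19.3%), beside 19.2% of all genes, so the share of members called was near that of all genes. Of these 5 were higher, beside 9.45% of all genes, and 6 lower, beside 9.71%. The median log2 fold change of members was -0.14, beside -0.01 over all genes. At 24 h, Itga7 was at 90.3, 65.9 and 104.6, below 142.7, 208.4 and 167.4 at 6 h, and fell by 0.99 (adjusted p = 0.001, limma). Itgb3 went from 11.9, 15.3 and 13.7 at 6 h to 6.62, 5.09 and 8.02 and fell by 0.96 (adjusted p = 0.00596), and Itga6 from 98.0, 134.0 and 127.9 to 61.7, 79.0 and 74.4 and fell by 0.73 (adjusted p = 0.00835), both limma. In all 3 the times did not overlap.

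Cdh3 rose from 166.9, 237.8 and 209.3 at 6 h to 352.1, 316.3 and 349.2 (log2 fold change 0.74, adjusted p = 0.00281, limma), and Cldn15 from 13.5, 17.7 and 15.1 to 29.7, 24.4 and 26.1 (0.76, adjusted p = 0.000112, limma). Both were higher in every 24 h library. Pcdh19 rose by 0.54 (adjusted p = 0.015), Pcdh18 by 0.52 (0.00733) and Cdh11 by 0.49 (0.0207), and Cldn11 fell by 0.85 (0.0127), Pcdhgb7 by 0.70 (0.0334) and Pcdh9 by 0.52 (0.0497), limma. Of these, Pcdh9 ended in all 6 fits without 1 library (up to 0.169), Pcdhgb7 in 4 (up to 0.129), Cdh11 in 3 (up to 0.0705), Pcdh19 in 3 (up to 0.0818) and Cldn11 without OP9-GFP 24 h library 2 (0.0609). OP9-GFP library 2 at 6 h stood apart, and without it 8 members and 1273 genes (9.17%) passed, in place of 11 and 2660, with Pcdh19 (0.0613), Pcdhgb7 (0.129) and Pcdh9 (0.145) no longer called.

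The inhibitor ahead of OP9-GFP co-culture gave 1 of 46 members (2.17%), beside 0.909% of all genes. Pcdh7 had 105.5, 103.3, 110.2 and 104.1 after DMSO and 118.4, 129.3, 127.9 and 123.8 after RO4929097. The groups did not overlap and Pcdh7 rose by 0.24 (adjusted p = 0.0489, limma), but edgeR did not call it (0.0738), nor did 7 of 8 fits without 1 library (0.0754 to 0.161). Pcdh10 had 8.56, 7.88, 10.2 and 6.14 after DMSO and 13.6, 16.8, 16.1 and 9.43 after RO4929097, where only RO4929097 library 4 lay within the DMSO range, with a log2 fold change of 0.69 (adjusted p = 0.144). Itga7 had 142.8, 159.0, 142.6 and 161.2 against 83.1, 113.2, 117.6 and 148.9, with library 4 again within the DMSO range (-0.41, adjusted p = 0.288).

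With the replicate number as a block, 9 members passed, beside 3.29% of all genes. Pcdh10 (blocked adjusted p = 0.00502), Itga3 (0.31 higher, 0.00966) and Pcdh19 (0.29 higher, 0.0158) were higher with Pcdh7. Itga1 (0.54 lower, 0.00701), Itgav (0.26 lower, 0.0248), Itgb5 (0.23 lower, 0.0385), Itga5 (0.20 lower, 0.0387) and Itga7 (0.0419) were lower, all limma. Of the marker lists, the epithelial one summed to 1996 to 2494 after DMSO and 1438 to 1925 after RO4929097 (1 of 6 lower). The 4 listed endothelial markers summed to 86.4 to 97.5 and 103 to 118, with 0 called. The 10 listed OP9 stromal ones summed to 4685 to 5981 and 4160 to 4869, also with 0 called. Their part in these changes was not tested.

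The experiments share no libraries, so directions can be set side by side. All 14 members called in rJAG1 had the same sign in OP9-Jag1 at 24 h, as had 87.4% of all genes called in rJAG1 and listed in both tables. At 6 h it was 12 of 14, beside 76.1%, with Itgb3 and Itgav opposite. Of 8 members called in rDLL4, 7 had the same sign in OP9-Dll4 at 24 h, beside 90.3%, with Itgav opposite. Against RO4929097 over OP9-GFP, 10 of 11 members called in rJAG1 had the opposite sign (all genes, 78.2%; Cdh3 had the same sign) and 5 of 5 called in rDLL4 (89.4%). Of the members called with RO4929097 on a ligand, 15 of 17 from rJAG1 had the same sign as over OP9-GFP (75.0%; not Itgb4 and Cdh3) and 11 of 11 from rDLL4 (84.5%). These shares of members were given beside those of all called genes and were not tested.

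**Figure D4:**
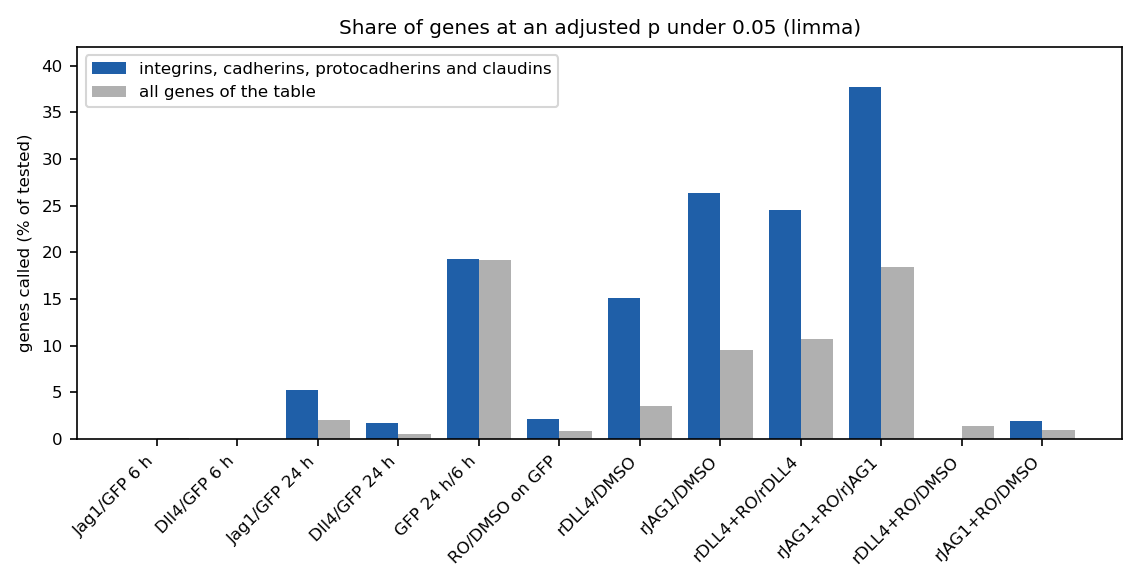
Percent of tested genes with an adjusted p under 0.05 (limma) in 12 comparisons, for the integrin, cadherin, protocadherin and claudin genes (blue) and for all genes of the table (grey). The members reach 37.7% for RO4929097 on rJAG1, beside 18.4% of all genes, and 19.3% beside 19.2% for OP9-GFP at 24 h against 6 h.

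Partners of these receptors were followed through lists of matrix ligands, focal adhesion proteins, catenins and nectins, and tight junction proteins. Their counts stand beside the shares of all genes given above, such as 4.83% higher and 4.76% lower in rJAG1, 2.45% and 1.05% in rDLL4, and 9.58% and 8.78% with RO4929097 on rJAG1. Of 13 integrin ligands tested in the recombinant-ligand experiment, 4 rose and 2 fell in rJAG1. Osteopontin (Spp1), bound by Itgav and Itga8 integrins, rose by 1.58 (mean 7.84 against 1.95), periostin (Postn) by 1.39 (2.97 against 0.513) and tenascin C (Tnc) by 0.83. Nephronectin (Npnt), the ligand of Itga8, fell by 0.78, from 142 to 81.2. In rDLL4, 4 rose and 0 fell: Spp1 by 0.89, Postn by 0.85, fibronectin (Fn1) by 0.54 and nidogen (Nid1) by 0.44. With RO4929097, 2 rose and 5 fell against rJAG1, among them Spp1 by -2.39, Postn by -1.77, Ctgf by -1.32 and Npnt by 1.12, and 2 rose and 6 fell against rDLL4. All values are log2 fold changes from limma with an adjusted p under 0.05. Postn had a mean signal of 0.513 ± 0.0985 (SD) in DMSO, 0.317 in rDLL4+RO and 0.166 in rJAG1+RO, against 1.79 in rDLL4. Like Itga8, it was listed only through the ligand libraries and so had to be higher there to be tested. The counts above include it.

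Of 23 focal adhesion proteins, which link integrins to actin, 1 rose and 1 fell in rJAG1 (Ptk2 by 0.25, Tns3 by -0.33) and 0 passed in rDLL4. Over OP9-GFP at 24 h against 6 h, 8 of 24 rose, beside 9.45% of all genes, and 1 fell, beside 9.71%, with Zyx at 0.75, Tns1 at 0.61, Tln1 at 0.51 and Fermt2 at 0.48. Of 13 catenins and nectins, 2 rose and 2 fell in rJAG1: the nectins Nectin4 by 1.15 and Nectin1 by 0.57, Plekha7 by -0.71 and Ctnnal1 by -0.46. In rDLL4, Nectin4 rose by 1.12 and Nectin1 by 0.44, and Ctnnal1 fell by 0.34. Nectin4 fell by 1.69 with RO4929097 on rJAG1 and by 0.69 with RO4929097 over OP9-GFP, the only one of that list called there. Over OP9-GFP its mean signal was 1.36 ± 0.207 (SD) after DMSO and 0.462 ± 0.0855 after RO4929097. Listing there took a signal of 1 in 4 libraries, so Nectin4 was listed through the DMSO libraries and had to be higher in them to be tested. Of the tight junction proteins, Pard6b fell by 0.58 in rJAG1. With RO4929097 on rJAG1, Pard6b rose by 0.69 and Cgnl1 by 0.81, and the adhesion molecule Jam2 fell by 1.14.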

How the data were processed

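A PicoPure kit gave the RNA and a NEBNext Ultra kit the libraries, per the labels' protocols. FastQC, cutadapt, RSEM, limma and build GRCm38 were used, per the submitters' processing notes. The aligner, annotation, strand setting and versions are not given in the sources used here. For each experiment there is 1 table, and in each of its libraries the deposited signal is whole reads plus 0.5, divided by a scaled library size. Reads recovered this way were whole for 100% of values within 0.01 reads, although 11 libraries had fewer than 100 low values to find the step from. Since the values are normalized, the main test was limma 3.58.1 (R 4.3.3, mean-variance trend) on log2(signal + 1), all groups of a table in 1 fit, with Benjamini-Hochberg adjustment over all its genes and an adjusted p under 0.05 as the call. The recovered reads were tested with edgeR 4.0.16 (quasi-likelihood, TMM) as an alternative.

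The 19 comparisons stay within a table. Members and lists were chosen with earlier results of these data known. Named were the members called in a comparison, at most 15 per direction by size of change, the most abundant of each family (up to 5) and partners called (at most 4 per list). The other alternatives were a pseudocount of 0.5, a mean signal of at least 4, quantile normalization, leaving out each library and a block on the replicate number in the titles. Same-numbered libraries were checked for shared deviations from their group means. Over the pairs within a time or experiment the correlations were 0.0778 to 0.683. They passed 0.1 in every pair except for rDLL4+RO against rDLL4 (0.0999 and 0.0778, beside 0.401 for number 1). For OP9-GFP at 24 h against 6 h they were 0.0561 to 0.1005. In both of these comparisons the numbers were not taken to pair the samples. That choice rests on the limit of 0.1 alone, as differently numbered libraries were not compared. Gene positions come from GENCODE M21. The fit was tested on simulated data. Some results on tight junction partners are not reported here.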

Additional observations from a re-analysis of the deposited data

Results flagged for a closer look

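In the inhibitor co-culture, 5 of 66 groups of 4 libraries of the members followed had 1 library far from the other 3 by Dixon's test, where chance alone gives about 1 in 20. After RO4929097, Cldn15 was at 21.5 in library 3, against 12.1 to 13.5 in the others. Library 1 of the same group stood apart in 3 members: Itgb5 at 53.8 (others 41.3 to 43.4), Pcdh18 at 16.3 (22.2 to 22.8) and Pcdhgc5 at 6.11 (2.23 to 2.58). After DMSO, Itgav was at 356.9 in library 2, against 392.7 to 399.3.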

How the results depend on the processing

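Counts of members called were compared over the alternatives. A replicate block raised them to 7 (OP9-Jag1, 6 h), 2 (OP9-Dll4, 6 h), 14 (OP9-Jag1, 24 h), 9 (OP9-Dll4, 24 h), 1 (OP9-Dll4 against OP9-Jag1, 24 h), 20 (OP9-GFP, 24 h against 6 h, beside 32.7% of all genes), 3 (change of the Jag1 effect with time), 9 (RO4929097 over OP9-GFP), 14 (rDLL4), 3 (rDLL4 against rJAG1), 4 (rDLL4+RO against DMSO) and 3 (rJAG1+RO against DMSO). The block moved no other count by more than 1.5 times, and all 73 calls of a member in a comparison remained with it. For OP9-GFP over time and rDLL4+RO against rDLL4 the numbers were not taken to pair the samples. Quantile normalization gave 7 for OP9-GFP over time, 0 for RO4929097 over OP9-GFP and 2 for rDLL4 against rJAG1. A pseudocount of 0.5 gave 0 for RO4929097 over OP9-GFP. The minimum mean signal of 4 gave 0 there, 5 for rDLL4 and 0 for rDLL4 against rJAG1, where fewer members were tested. With edgeR, RO4929097 over OP9-GFP and rDLL4 against rJAG1 gave 0. Leaving out 1 library gave 0 to 4 members for OP9-Jag1 at 24 h, 0 to 1 for OP9-Dll4 at 24 h, 0 to 1 for RO4929097 over OP9-GFP, 0 to 0 for rDLL4 against rJAG1, 0 to 1 for rDLL4+RO and 0 to 2 for rJAG1+RO against DMSO. It gave 8 to 12 for OP9-GFP over time, 6 to 9 for rDLL4, 11 to 16 for rJAG1, 10 to 13 for rDLL4+RO against rDLL4 and 15 to 23 for rJAG1+RO against rJAG1. The cause of these shifts was not tested. Of the 73 calls, 26 ended in at least 1 fit without a library, 4 with edgeR, 2 with the other pseudocount, 6 with quantile normalization and 3 of the 58 still tested with the minimum signal, and 0 changed direction. Depth limits the weakest members: in DMSO, Cldn11 rests on 3 to 14 reads, Itga8 on 7 to 17 and Itga4 on 12 to 29, beside a floor of 3, and pooled RNA from MEEC and any OP9 cells left cannot be told apart.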
